A study of Homo sapiens with 4 samples.

Results

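The genes described here are the 10 that encode the collagen hydroxylating and crosslinking enzymes and the collagen chaperone: the prolyl 4-hydroxylase subunits P4HA1, P4HA2, P4HA3 and P4HB, the lysyl hydroxylases PLOD1, PLOD2 and PLOD3, the lysyl oxidases LOX and LOXL2, and SERPINH1. They were chosen by function and symbol, and all 10 were found among the 58736 listed features, each under 1 Ensembl identifier. The list was drawn up with earlier results of the comparison below known, so the differences between groups are given as a description of where each gene stands in a fit across all genes, and nothing is supported with them. RNA was sequenced from HEK293A cells, an established human embryonic kidney line, in 4 libraries. A well of 300000 seeded cells received 1 µg of FEN1 plasmid (FEN1 is a nuclease that cuts DNA flaps) and 500 pmol of DNA probes 48 h later, per the labels' protocols. RNA was prepared after 72 h. The groups were the negative control (NC, replicates 1 and 3) and cells given the probe NT1_hp2 (replicates 2 and 3), and the labels describe the same plasmid step for both. The labels do not name the target of NT1_hp2 or the probe of the control. Nor do they say that replicates were separate cultures, so p-values below measure spread between libraries that may be only technical.

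Collagen chains are modified in the endoplasmic reticulum before they leave the cell. Prolyl 4-hydroxylase, a tetramer of catalytic alpha subunits (P4HA1, P4HA2 or P4HA3) and beta subunits (P4HB), hydroxylates prolines and so makes the triple helix stable at body temperature. Lysyl hydroxylases modify lysines that later carry sugars or crosslinks, SERPINH1 (HSP47) binds the folded triple helix, and outside the cell copper-dependent lysyl oxidases turn lysines into reactive aldehydes that join the fibres. P4HA1, P4HA2, PLOD2 and LOX are among the textbook targets of the hypoxia-inducible factors (HIF), and SERPINH1 is a textbook heat shock gene. These names are examples, and whether PLOD1, LOXL2 and the other genes described here are HIF targets too was not tested. They therefore do not divide the genes into HIF targets and others.

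P4HA1, PLOD2 and LOX were higher in both NT1_hp2 libraries than in both control libraries, at 1.80, 1.52 and 1.55 times the control mean. PLOD3 was lower, at 0.699 times the control mean. The other lysyl hydroxylase, PLOD1 (0.718 times), and the chaperone SERPINH1 (0.752 times) were lower in both libraries too but did not pass the threshold, and P4HB was at 0.992 times the control mean. In a fit of all genes (limma-trend on log2(FPKM + 1), FPKM being reads corrected for exon length and sequencing depth), 3 of the 9 tested genes were called higher and 1 lower at a Benjamini-Hochberg adjusted p under 0.05, which 13.9% of the 16362 tested genes reached (5.0% higher and 8.92% lower). The median log2 difference was -0.01 over the 9 genes and -0.0075 over all tested genes. In 8 of the 9 the groups did not overlap, 4 above and 4 below, as in 66.8% of all tested genes (32.0% above and 34.8% below). P4HA3 reached 1 FPKM in only 1 library and was not tested. With all 4 libraries 6 of the 9 had an unadjusted p under 0.05, as did 37.0% of all tested genes. With any 1 library left out, limma-trend called 0 of the 9 genes and 0 or 1 genes in the whole table (at most 0.00611%), and 5 or 6 of the 9 had an unadjusted p under 0.05. The split of the whole table moved from 818 higher and 1460 lower to 1484 and 1428 with upper-quartile factors, to 2689 and 3093 with limma-voom on recovered reads and to 3290 and 910 (25.5% of genes) with libraries brought to a common sum. That last scaling shifted the median of all genes to 0.16, called P4HA2 and P4HB higher as well, and left PLOD3 uncalled.

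**Figure D1:**
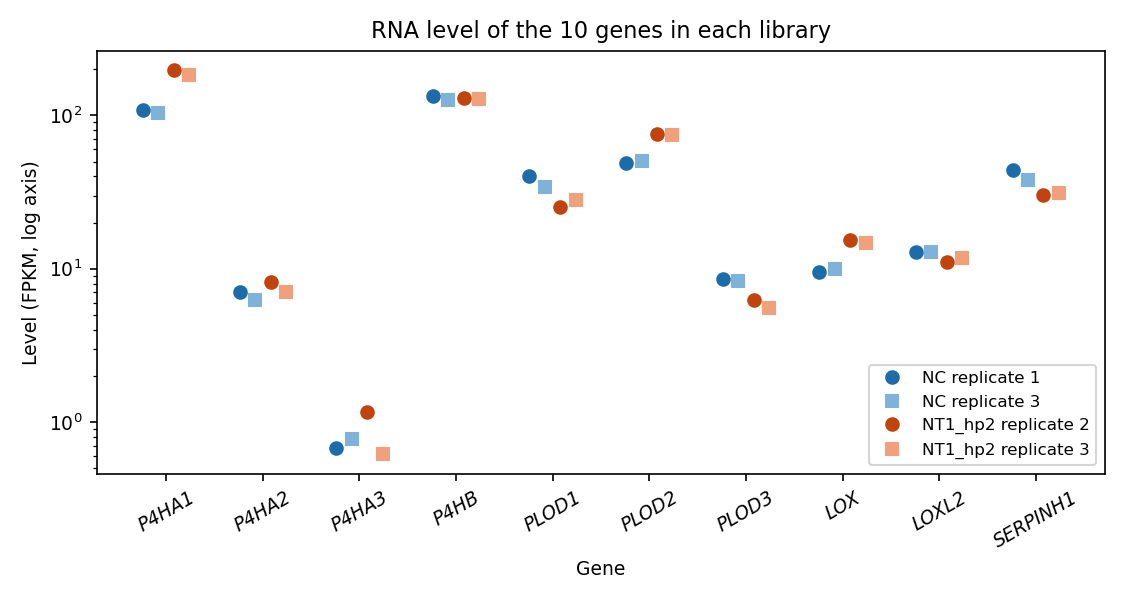
Level of each gene in FPKM on a log axis, with 1 point for each of the 4 libraries (blue NC, orange NT1_hp2). P4HA1, PLOD2 and LOX lie higher in both NT1_hp2 libraries, PLOD1, PLOD3 and SERPINH1 lie lower, and P4HB lies between 127 and 134 FPKM in all 4.

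The starts of these genes were searched for short letter patterns as a description only. Whether any pattern has a part in the differences between groups was not tested. Windows of 250 bases before and 50 after a RefSeq gene start (GRCh38.p14) matched 8 of the 10 genes, all but P4HA3 and LOXL2, with 3 windows for LOX and 2 for SERPINH1. The core letters of HIF sites, ACGTG, were searched on both strands. They were present in the windows of P4HA1, PLOD2, LOX and SERPINH1 and not in those of P4HA2, P4HB, PLOD1 or PLOD3, and 21.4% of 35116 RefSeq windows hold them. The 250 bases before the RefSeq start of PLOD2 (chr3:146161185-146161434, minus strand, inside an intron of the longest PLOD2 model of GENCODE 29) are printed 5' to 3', with capitals on ACGTG or its relative GCGTG, read on either strand (CACGT and CACGC on the other strand). GCGTG was in the windows of P4HB, PLOD1, PLOD2, LOX and SERPINH1 and in 36.5% of all windows. One or the other pattern was thus in 6 of the 8 genes, P4HB, PLOD1 and SERPINH1 included and P4HA2 and PLOD3 not. The share over all windows was 48.4%. Genes were counted when any of their windows held a pattern, while the shares are per window, so these figures are not alike. The first windows of LOX and SERPINH1 held no GCGTG, which lay only in their later windows.
PLOD2: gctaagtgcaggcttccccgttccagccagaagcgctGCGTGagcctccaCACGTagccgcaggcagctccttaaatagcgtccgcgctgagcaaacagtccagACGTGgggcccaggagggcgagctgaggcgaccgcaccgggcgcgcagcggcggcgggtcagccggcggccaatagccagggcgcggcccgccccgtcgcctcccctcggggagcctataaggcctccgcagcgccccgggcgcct
The other ACGTG matches are printed with 10 bases on each side, in the direction of transcription, with the match in capitals. P4HA1 has 1 (chr10:73096938-73096962, minus strand), in an exon annotated as UTR in GENCODE 29, and LOX has 4 in its first window (chr5:122078430-122078454, chr5:122078361-122078385, chr5:122078343-122078367 and chr5:122078287-122078311, minus strand), the first pair before the annotated start of the gene and the other pair reaching into an exon annotated as UTR. Sites 2 and 3 overlap. SERPINH1 has 1 (chr11:75562279-75562303, plus strand), also in an exon annotated as UTR.
P4HA1: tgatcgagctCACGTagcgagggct
LOX site 1: tccctgtgcaACGTGtctgggggga
LOX site 2: gtccgccttgCACGTttccaatcgc
LOX site 3: caatcgcattACGTGaacaaatagc
LOX site 4: aactttgcaaACGTGccagaaagtt
SERPINH1: gagcgagagtCACGTcccggcgcta
Another LOX match lies in an intron, inside the windows of the later LOX starts. TGATGNAA, the core of amino acid response elements (3.62% of windows), and TGACGTG (1.97%), which contains ACGTG, were in no window of the 8 genes. TATAAA was in those of P4HA1 and P4HB (11.5% of windows), and GGGCGG (45.0%) in those of P4HB, PLOD1, PLOD2, PLOD3, LOX and SERPINH1. A match is a run of letters and shows neither binding nor use.

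P4HA1 (ENSG00000122884, chromosome 10, 73007217 to 73096974, minus strand, GRCh38) encodes the main catalytic alpha subunit of prolyl 4-hydroxylase. It was at 109 FPKM in NC replicate 1, 104 in NC replicate 3, 198 in NT1_hp2 replicate 2 and 184 in NT1_hp2 replicate 3. Both NT1_hp2 libraries were high and the groups lay far apart, on 4027 to 8641 reads per library. Means were 106 ± 3.54 and 191 ± 10.03 FPKM (SD, n = 2 each), and the log2 difference of 0.84 (SE 0.079; adjusted p = 0.0340 in limma-trend) passed. It lay between 0.79 and 0.89 when each library was left out, although no adjusted p passed in those fits. P4HA1 stood at the 99.0th percentile of mean level among tested genes.

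The other alpha subunits were scarce. P4HA2 (ENSG00000072682, chromosome 5, 132191838 to 132295315) was at 7.03 and 6.27 FPKM in NC replicates 1 and 3 and at 8.24 and 7.06 FPKM in NT1_hp2 replicates 2 and 3. The lower NT1_hp2 library exceeded the higher control library by little, and the log2 difference of 0.18 (SE 0.10; adjusted p = 0.277 in limma-trend) did not pass. It was 0.10 without NC replicate 3, 0.076 without NT1_hp2 replicate 2 and 0.27 without NT1_hp2 replicate 3. P4HA3 (ENSG00000149380, chromosome 11, 74235801 to 74311657) was at 0.676 and 0.774 FPKM in the control and at 1.17 and 0.615 FPKM in NT1_hp2. These rest on 39, 39, 66 and 35 reads, the groups overlapped, and no difference was detectable at this depth.

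P4HB (ENSG00000185624, chromosome 17, 81843159 to 81860694) encodes the beta subunit, which is also protein disulfide isomerase and serves many proteins besides collagen. It was at 134 and 127 FPKM in the control and at 129 and 129 FPKM in NT1_hp2. The NT1_hp2 libraries fell inside the range of the control, and the log2 difference was -0.01 (SE 0.072; adjusted p = 0.925 in limma-trend). An antisense gene on the other strand covers 9.98% of its exon bases. In the control libraries the alpha subunits summed to 0.870 and 0.874 times the P4HB level. In the NT1_hp2 libraries they summed to 1.60 and 1.48 times the P4HB level of the same library. This ratio of FPKM within each library does not depend on scaling between libraries. Trends with length and GC content, described below, do not cancel in it, and no ratio was computed with them removed. With those trends subtracted, the log2 differences of P4HA1 and P4HB were 0.75 and 0.23, against 0.84 and -0.01 before. P4HA1 made up 93.4% and 93.6% of the summed alpha subunit level in the control and 95.5% and 96.0% in NT1_hp2. In a design of 2 against 2 no permutation test of such a ratio can pass, so none was run.

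**Figure D2:**
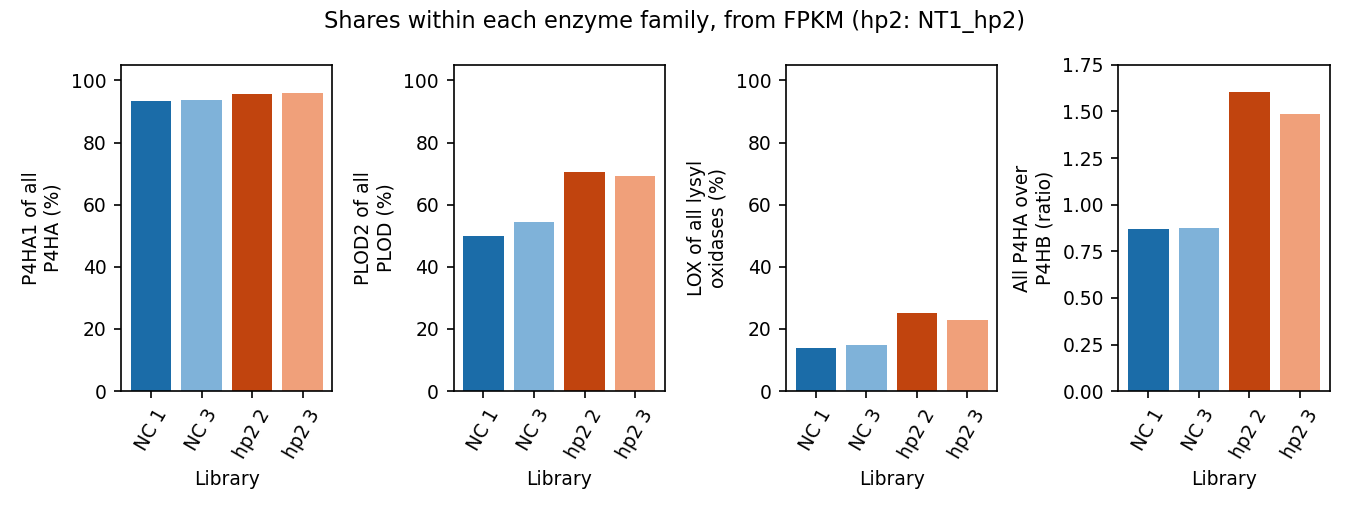
Bars give, for each of the 4 libraries, the percent of the family's summed FPKM taken by P4HA1, PLOD2 and LOX. The last panel gives the ratio of summed alpha subunits to P4HB. Trends with length and GC content were not removed. PLOD2 goes from 50.0% and 54.3% in NC to 70.5% and 69.1% in NT1_hp2, LOX from 13.9% and 14.9% to 25.2% and 23.0%, and P4HA1 stays above 93% throughout.

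The 3 lysyl hydroxylases did not move together. PLOD2 (ENSG00000152952, chromosome 3, 146069440 to 146163653) encodes the enzyme that hydroxylates lysines in the collagen telopeptides, which directs the kind of crosslink formed. It was at 48.8 and 50.4 FPKM in NC replicates 1 and 3 and at 75.7 and 74.9 FPKM in NT1_hp2 replicates 2 and 3. Replicates lay close to each other and the groups far apart, and the log2 difference was 0.59 (SE 0.064) at a limma-trend adjusted p of 0.0340. PLOD1 (ENSG00000083444, chromosome 1, 11934205 to 11975538), which acts on lysines in the helix, was at 40.2 and 34.1 FPKM in the control and at 25.4 and 28.0 FPKM in NT1_hp2. The groups did not overlap, but the control libraries differed, and the log2 difference of -0.46 (SE 0.10; adjusted p = 0.0502 in limma-trend) did not pass. It was -0.34 without NC replicate 1 and -0.58 without NC replicate 3, and PLOD1 passed under 6 of the 14 alternatives. Those 6 also called more of the whole table, namely 14.8% of genes with a pseudocount of 0.1, 16.2% with median-of-ratios factors, 17.8% with upper-quartile factors, 26.2% with a filter of 1 FPKM in all 4 libraries, 35.3% with limma-voom and 38.8% among protein-coding genes.

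PLOD3 (ENSG00000106397, chromosome 7, 101205977 to 101218420) encodes a lysyl hydroxylase that also adds glucose to collagen. It was the scarcest of the 3, at 8.51 and 8.31 FPKM in the control and 6.23 and 5.53 FPKM in NT1_hp2. Both NT1_hp2 libraries were lower, and the log2 difference of -0.45 (SE 0.082; adjusted p = 0.0386 in limma-trend) passed. It lost the call in 7 of the 14 alternatives: the common sum (adjusted p = 0.0715 in limma-trend), no filter, subtraction of length and GC trends, and omission of any 1 library. It passed in the other 7, the 6 named for PLOD1 and the fit without robust shrinkage, which called 11.9% of all tested genes. Its exons share 429 bases (7.57% of its exon length) with ZNHIT1 on the other strand, whose reads cannot be told apart in a library that does not mark strand. Within the family PLOD2 took 50.0% and 54.3% of the summed FPKM in the control and 70.5% and 69.1% in NT1_hp2. PLOD1 took 41.3% and 36.7% against 23.6% and 25.8%, and PLOD3 took 8.72% and 8.95% against 5.81% and 5.10%. The trends with GC content described below were not removed from these shares.

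LOX (ENSG00000113083, chromosome 5, 122063195 to 122078360) encodes the founding lysyl oxidase. It was at 9.59 and 9.92 FPKM in NC replicates 1 and 3 and at 15.4 and 14.7 FPKM in NT1_hp2 replicates 2 and 3. Both NT1_hp2 libraries were high, on 1210 and 1161 reads against 766 and 691, and the log2 difference was 0.58 (SE 0.065; adjusted p = 0.0340 in limma-trend). LOXL2 (ENSG00000134013, chromosome 8, 23297189 to 23425328), a relative that oxidises collagen IV of basement membranes, was at 12.86 and 12.85 FPKM in the control and at 11.1 and 11.8 FPKM in NT1_hp2. The groups lay apart by a narrow margin, and the log2 difference of -0.15 (SE 0.065; adjusted p = 0.162 in limma-trend) did not pass. The LOX level was 0.746 and 0.772 times that of LOXL2 in the control and 1.39 and 1.25 times in NT1_hp2. Of the summed FPKM of all 5 lysyl oxidases, LOX took 13.9% and 14.9% in the control and 25.2% and 23.0% in NT1_hp2. The trends with GC content were not removed from this share either.

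SERPINH1 (ENSG00000149257, chromosome 11, 75562056 to 75572783), the collagen chaperone, was at 43.9 and 37.9 FPKM in the control and at 30.1 and 31.4 FPKM in NT1_hp2. Both NT1_hp2 libraries were lower than both controls, but the controls differed from each other. The log2 difference of -0.40 (SE 0.091; adjusted p = 0.0513 in limma-trend) did not pass, and it was -0.29 without NC replicate 1 and -0.50 without NC replicate 3. Like PLOD1, it passed under 6 of the 14 alternatives, the same 6.

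By mean FPKM, a level per length of gene, the control order was P4HB, P4HA1, PLOD2, SERPINH1, PLOD1, LOXL2, LOX, PLOD3, P4HA2 and P4HA3. The ranges of SERPINH1 and PLOD1 overlapped there, and every other pair of neighbours lay apart in both libraries. In NT1_hp2 the order differed at 3 places, with P4HA1 above P4HB, LOX above LOXL2 and P4HA2 above PLOD3, and no neighbours overlapped. The union of exons that sets the length was 3093 bases for P4HA1 and 8502 for P4HA2, so levels between genes depend on the annotated length.

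GC content of the transcripts moved with the difference between groups across the whole table. Among the 10% of tested genes with the lowest GC content the median log2 difference was 0.24, and among the 10% with the highest it was -0.32. The 3 genes called higher lie on the low side, PLOD2 at 34.4%, LOX at 39.6% and P4HA1 at 40.8% GC in the longest transcript. The genes at lower levels lie on the high side, SERPINH1 at 56.5%, LOXL2 at 58.2%, PLOD1 at 58.6% and PLOD3 at 61.7%, beside P4HB at 58.4%. With each library's smooth trends in exon length and GC content subtracted, limma-trend called 298 of 16350 genes, or 1.82%, among them P4HA1, PLOD2 and LOX. Their log2 differences were then 0.75 (adjusted p = 0.0371), 0.35 (0.0470) and 0.42 (0.0428). PLOD3, at -0.18 (limma-trend adjusted p = 0.293), was no longer called, PLOD1 and SERPINH1 were at -0.22 and -0.21, and P4HB and LOXL2 turned positive at 0.23 and 0.08 without passing.

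**Figure D3:**
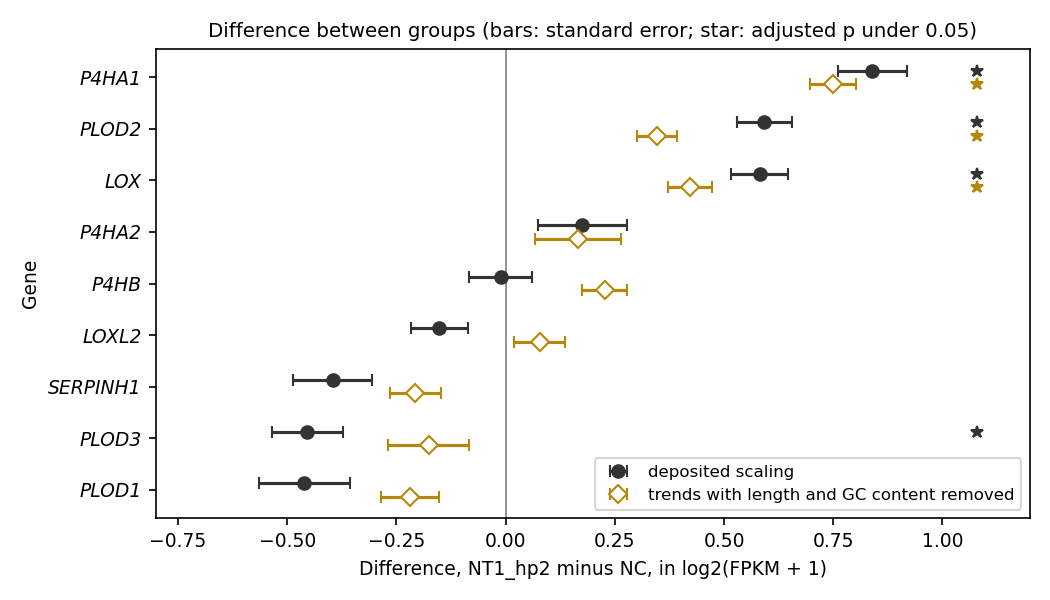
Difference between groups in log2(FPKM + 1) for the 9 tested genes, with the standard error of the fit as bars, for the deposited scaling (filled) and with length and GC trends subtracted (open); stars mark an adjusted p under 0.05. P4HA1, PLOD2 and LOX carry stars in both, PLOD3 only with the deposited scaling.

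**Figure D4:**
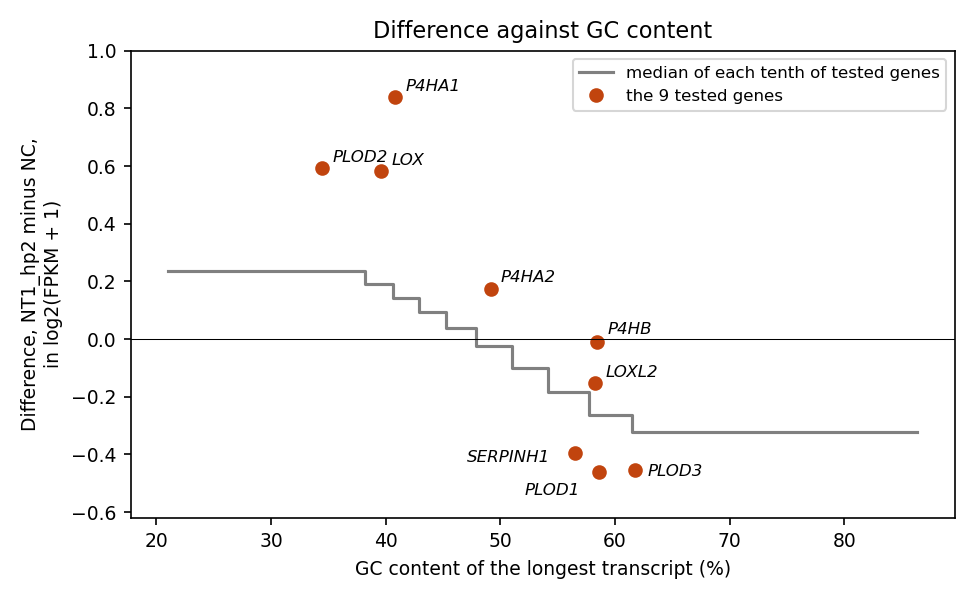
Difference between groups in log2(FPKM + 1) against GC content of the longest transcript for the 9 tested genes (points), with the median over each 10% of all tested genes, ranked by GC content, as steps. P4HA1, at 0.84, lies farthest above the steps, and P4HB, at -0.01, lies above the steps at its GC content too.

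The collagen chains are the substrates of these enzymes. Of 44 chain genes 19 were tested, of which 0 rose and 1 fell in limma-trend, beside 5.0% higher and 8.92% lower of all tested genes. An unadjusted p under 0.05 was reached by 9 of the 19, and by 37.0% of all tested genes. The 19 had a median log2 difference of -0.08 against -0.01 over all tested genes. The most abundant was COL5A1, at 50.0 and 48.1 FPKM in the control and 37.9 and 41.3 FPKM in NT1_hp2 (log2 difference -0.30, limma-trend adjusted p = 0.0559). COL6A1 fell from 39.3 ± 0.0495 to 31.9 ± 0.508 FPKM (SD, n = 2), with a log2 difference of -0.29 that became 0.0059 once length and GC trends were subtracted. COL6A2, COL18A1 and COL4A2 were at -0.25, -0.21 and -0.30 and COL14A1 at 0.32, none of them past the threshold. Summed over the 44 genes, the chains were at 220 and 214 FPKM in the control and at 186 and 196 FPKM in NT1_hp2.

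Genes that act beside these enzymes in the endoplasmic reticulum went in both directions. The counts of called genes in this and the next paragraphs stand beside 5.0% higher and 8.92% lower among all tested genes. Among 13 genes of prolyl 3-hydroxylation, proline isomerisation and lysyl glycosylation, 0 rose and 3 fell. The 3 were the prolyl isomerase FKBP10 (87.6 ± 8.31 to 64.3 ± 1.96 FPKM), P3H3 (9.09 ± 1.06 to 5.65 ± 0.695) and P3H4 (17.8 ± 0.953 to 13.9 ± 0.549), and the median was -0.07. Of 14 tested disulfide isomerases and general chaperones 4 rose and 1 fell (median 0.14). The oxidases that recharge P4HB and its relatives, ERO1A (12.01 ± 0.245 to 17.8 ± 0.622 FPKM) and ERO1B (9.66 ± 0.00062 to 13.5 ± 0.304), rose and ERP29 fell (34.0 ± 3.65 to 22.9 ± 0.546). ERP44 (log2 difference 0.37) and HSPA5 (0.42), named after their values were seen, also rose. Of 14 genes of procollagen export 0 rose and 0 fell in limma-trend, with SAR1B at 0.38, SEC31A at 0.25 and SEC13 at -0.27 and adjusted p-values of 0.0661, 0.0548 and 0.0792. An unadjusted p under 0.05 was reached by 5 of the 14, those 3 among them, and by 37.0% of all tested genes.

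Of the enzymes that act after secretion LOX, described above, was called higher. LOXL1 fell from 17.5 ± 0.742 to 11.3 ± 1.07 FPKM, the 1 call among the remaining lysyl oxidases, with LOXL4 at -0.20 and LOXL3 at 0.022. Of 6 tested procollagen processing genes 0 rose and 2 fell, the C-proteinase BMP1 (7.99 ± 0.558 to 5.58 ± 0.547 FPKM) and the proprotein convertase FURIN (32.2 ± 1.09 to 20.8 ± 3.68 FPKM), and the enhancer of BMP1, PCOLCE, was at -0.32 (limma-trend adjusted p = 0.0512). Among 7 tested genes of ascorbate and copper supply 0 rose and 2 fell, the copper chaperones ATOX1 (4.14 ± 0.113 to 2.37 ± 0.487 FPKM) and CCS (13.6 ± 1.60 to 9.22 ± 0.571 FPKM), while the copper importer SLC31A1 was at 0.26 without passing.

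The HIF target list, which holds none of the 10 genes, had 7 members that rose and 1 that fell among 21 tested, with a median of 0.18, where 5.0% of all tested genes were called higher and 8.92% lower. The hexokinase HK2 went from 10.5 and 10.7 FPKM in the control to 16.8 and 16.7 in NT1_hp2, MXI1 from 19.1 and 19.1 to 28.2 and 26.9, and ERO1A, also counted above, and KDM3A are among the 7. BNIP3L, NDRG1 and PDK1, named after their values were seen, complete them. ADM, named after its values were seen, fell by 0.30 on the log2 scale. EGLN3, itself a HIF target, was at -0.24 without passing. CA9 stayed under 0.5 FPKM in every library and was not tested, at 0.499 and 0.381 FPKM in the control and lower, at 0.170 and 0.169, in NT1_hp2. Of 14 tested 2-oxoglutarate dioxygenases outside the collagen enzymes, which share their cofactors, 1 rose (KDM3A, 17.0 ± 0.520 to 23.4 ± 0.906 FPKM) and 1 fell (OGFOD3, 5.87 ± 0.338 to 4.17 ± 0.133 FPKM), with P4HTM at -0.34. Of 10 tested TGF-beta response genes 1 rose (FN1, 52.4 ± 1.47 to 67.3 ± 0.392 FPKM) and 1 fell (CCN1, 21.8 ± 2.77 to 13.3 ± 0.965 FPKM), with SKIL at 0.37. With length and GC trends subtracted, limma-trend called 3 HIF targets (HK2, MXI1 and NDRG1) higher and 0 lower, beside 1.82% of all genes called in either direction. An unadjusted p under 0.05 was then reached by 11 of the 21, and by 27.1% of all genes. That fit called 0 genes of the other 9 lists, in each of which 2 to 7 genes had an unadjusted p under 0.05.

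**Figure D5:**
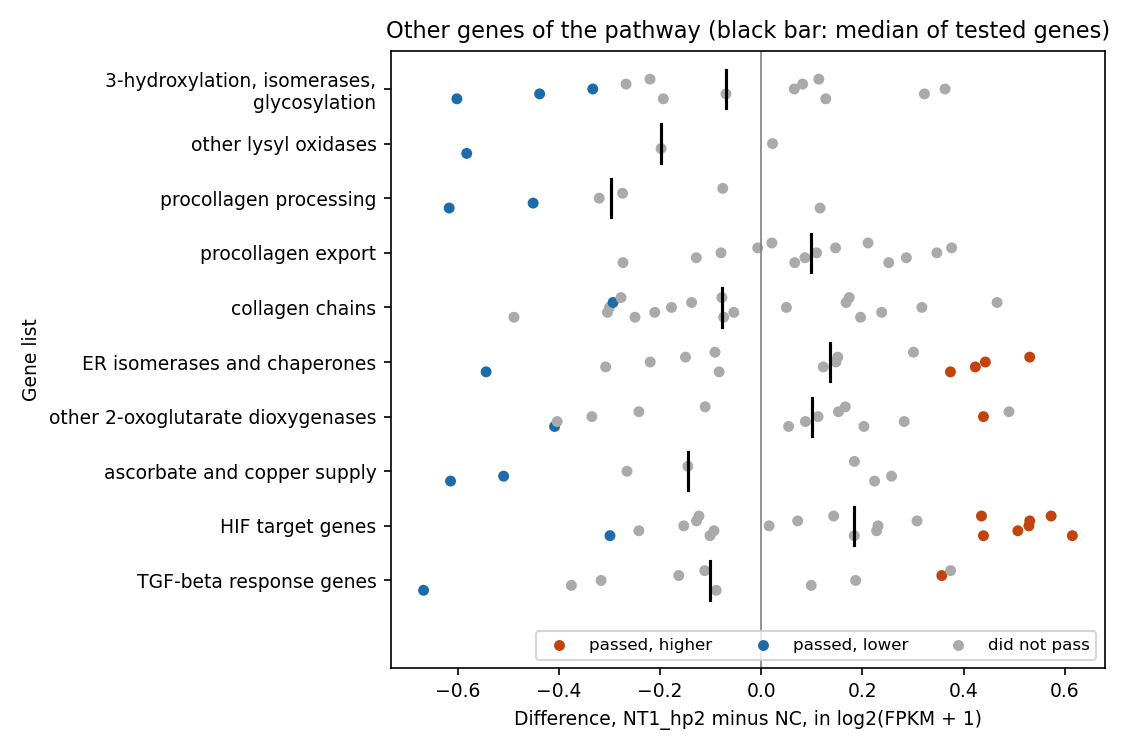
Difference between groups in log2(FPKM + 1) for every tested gene of the 10 fixed lists, 1 point per gene, coloured by whether it passed and in which direction, with the list's median as a black bar. The HIF target list holds 7 points called higher, and the list of procollagen export holds none called.

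The genes whose profile over the 4 libraries was nearest that of P4HA1, by Euclidean distance of centred log2(FPKM + 1) among 8308 genes with a symbol and a mean of at least 5 FPKM, were MTHFD2 (distance 0.057), CEBPG (0.081), ALDH1L2 (0.082), DUSP8 (0.11) and IARS1 (0.11). With 4 libraries in 2 groups this ranks mostly the size of the step between groups. None of the 10 genes was among them.

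The libraries held 12506203 to 14908687 reads recovered from the deposited values, and 3 reads for a gene of 1 kilobase came to 0.208 to 0.239 FPKM, a floor that covers counting error alone. The mitochondrial share of reads was 6.06% and 5.92% in the control and 4.33% and 4.29% in NT1_hp2. Keratins 8 and 18 were abundant, and KRT18 fell (log2 difference -0.41), but 4 defining markers of kidney or general epithelium, EPCAM, CDH1, PAX2 and PAX8, stayed under 0.6 FPKM and CDH16 was listed at 0 in all 4 libraries, although the labels call the line epithelial. The kidney marker LHX1 was at 1.73 to 2.18 FPKM. The 8 markers summed to 193 and 170 FPKM in the control and 141 and 145 in NT1_hp2, and their part in the results was not tested. Markers of fibroblasts, the cells best known for collagen production, summed to 14.6 and 14.8 FPKM against 14.3 and 13.7. Only 3 of 10 were at 1 FPKM or more in any library, COL1A1, COL3A1 and LUM. In the control COL1A1 was at 8.29 and 8.44 FPKM and COL3A1 at 3.86 and 3.42. These chains make up most of the sum and are also counted among the collagen chains above. All cells were of 1 line, and bulk RNA cannot tell a change in all cells from a change in some of them.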

How the data were processed

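The authors deposited 1 table per library with 1 value for each of 58736 features. The deposited values were taken as FPKM, a unit inferred from the values, since per the file headers only genes and libraries are named. The build GRCh38.p12 comes from the submitters' processing notes. How reads were aligned, counted and scaled is not given in the sources used here. Multiplied by the summed exon length in GENCODE 29, 100% of values above 0 and under 5000 reads were whole multiples of a step within 0.01, which gave the reads behind each value. The row named EGFP has no length and was left out of read totals. Symbols came from the reference table of gene names. Promoter windows came from RefSeq on GRCh38.p14.

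Genes that reached 1 FPKM in 2 or more libraries were tested with limma 3.58.1 in R 4.3.3 (eBayes with trend and robust options) on log2(FPKM + 1), a scale that understates changes of low genes. P-values were adjusted by Benjamini-Hochberg over all tested genes. The fit was also run on simulated reads with known changes. These carried no trend with length or GC content, so that run cannot tell how the fit performs on the real libraries. No 2 files were identical (0 pairs). The 10 genes and all gene lists were chosen with earlier results of these data known. Named genes were the 10, up to 3 of smallest p per list, and the 5 most abundant collagen chains. The alternatives were 3 scalings, limma-voom on recovered reads (median-of-ratios library sizes), a pseudocount of 0.1, 2 other filters, no robust shrinkage, protein-coding genes only, removal of length and GC trends (mgcv 1.9.3) and omission of each library. GC content is that of the longest transcript. The library kit named in the labels' protocols does not mark strand.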

Additional observations from a re-analysis of the deposited data

How the results depend on the processing

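P4HA1, PLOD2 and LOX kept their direction under all 14 alternatives, with log2 differences of 0.75 to 1.05, 0.35 to 0.80 and 0.42 to 0.77, and lost the call in 5 of them, those without a filter or without 1 library. PLOD3 kept its direction (-0.53 to -0.18) and lost the call in 7. P4HB changed sign to 0.059 with upper-quartile factors, 0.011 with median-of-ratios factors, 0.011 with limma-voom on recovered reads, 0.027 without NC replicate 1 (-0.051 without NC replicate 3) and 0.23 with trends in length and GC content removed, and it was called at 0.20 (adjusted p = 0.0381) with a common sum per library. LOXL2 changed sign to 0.040 with the common sum and 0.078 with trends removed. The common sum shifted the median of all genes by 0.16, and values under that scaling are to be read against this shift.

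The count of genes called, 2278 with the deposited scaling, was 4200 with a common sum, 3647 with at least 1 FPKM in all 4 libraries, 4716 among protein-coding genes, 5782 with limma-voom and 298 with trends removed. Without a filter 0 genes and 0 of the 10 were called (limma-trend), with 6778 genes at an unadjusted p under 0.05. Leaving out 1 library gave 0 to 1 genes and 0 to 0 of the 9, with 3315 to 5836 genes at an unadjusted p under 0.05. A lone library is then assumed to vary like the other group. The cause of the sign changes was not tested. The number of the 9 called was otherwise 3 to 6.

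Differences in shares, NT1_hp2 minus NC, ranged over the 4 library pairs from 1.83 to 2.62 percentage points for P4HA1, -17.6 to -10.9 for PLOD1, 8.10 to 11.3 for LOX and -1.11 to -0.288 for LOXL2. With reads in place of FPKM they were 4.93 for P4HA1 and -1.84 for LOXL2, and 0.400 for the ratio of alpha subunits to P4HB, because the lengths of the genes then weigh in. Trends with length and GC content do not cancel in shares and ratios, which were not computed with those trends removed. No paired analysis was possible because the groups share only 1 replicate number.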
